A study of Homo sapiens with 12 samples.

Results

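The genes described here are the protein-coding zinc finger genes of human chromosome 19 whose symbols begin with ZNF and a digit. They were taken from the deposited gene table by gene type, symbol and locus, with no use of their measured values, and number 249 of the table's 58302 genes. Their expression was measured by RNA sequencing in OCI-LY3, an established diffuse large B-cell lymphoma line labelled as the activated B-cell type, and in SU-DHL6, an established line labelled as the germinal centre B-cell type. Both lines are labelled wild type, and each was sequenced untreated and after treatment with selinexor, a small molecule that blocks the nuclear export receptor XPO1. The 4 groups hold 3 libraries each, described as biological triplicates without an account of how the cultures were kept apart, so p-values measure the spread between these libraries, which may be partly technical. The labels give doses of 300 and 100 nM and times of 24 and 48 h but do not say which libraries had which. The lines may thus have had unlike doses or times, and each line is 1 model with no second line of its type.

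C2H2 zinc finger proteins bind DNA through tandem fingers, each of which contacts a few bases. Many carry a KRAB domain, which recruits the corepressor TRIM28 and, through it, the histone methyltransferase SETDB1 and heterochromatin proteins, and many of those silence retrotransposons. Chromosome 19 is known for large clusters of KRAB zinc finger genes that arose by repeated duplication, and the clusters are themselves covered by heterochromatin marks in many cell types.

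Library totals ranged from 14210200 to 16405842 counts. XPO1, whose transcript is known to rise when the protein is blocked, rose by 0.99 ± 0.13 in OCI-LY3 and 1.77 ± 0.13 in SU-DHL6 (log2 fold change ± SE, edgeR adjusted p = 2.41e-05 and 1.1e-07). Of the B cell markers, the mean of CD79B was 141 CPM (counts relative to the TMM-scaled library total) in untreated OCI-LY3 and that of PAX5 was 730 CPM. The T cell and monocyte lists (4 and 3 genes) summed to at most 1.18 CPM in any untreated library, and in treated OCI-LY3 to 3.16 to 4.89 and 3.96 to 4.6 CPM, with CD2 and LYZ at 0 in all libraries. The 4 stromal and epithelial markers summed to 22.3 to 38.0 CPM in OCI-LY3, nearly all of it COL1A1, and to at most 0.186 CPM in SU-DHL6, with EPCAM at 0. Germinal centre markers summed to 133 to 138 CPM in untreated OCI-LY3 and 472 to 491 CPM in untreated SU-DHL6, and activated B cell markers to 2429 to 2489 and 202 to 209 CPM. The part of these markers in the results was not tested. The first untreated SU-DHL6 library and the third treated OCI-LY3 library stood apart from their replicates on the fourth principal component, and counts without both are given where they differ by more than 1.5 times. In bulk libraries, fewer cells that express a gene and less RNA per cell cannot be told apart.

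The 249 genes span 2819874 to 58481230 on chromosome 19 (GRCh38) and fall into 16 neighbourhoods when a new one is begun wherever neighbouring genes start over 1 Mb apart. The largest hold 59 genes (55.5 to 58.5 Mb), 40 genes (51.6 to 53.6 Mb), 37 genes (19.7 to 24.1 Mb) and 26 genes each (11.5 to 12.6 Mb and 36.2 to 37.8 Mb). Of the 248 genes with a coding transcript in GENCODE 29, 213 encode a KRAB box by sequence match and 35 do not. The number of C2H2 fingers found was 12 at the median and ranged from 0 to 36. In all, 209 genes passed a mean raw count of 10 over the 12 libraries, 40 did not, and 17 of those 40 had 0 counts in every library. The 17 are ZNF558, ZNF560, ZNF208, ZNF676, ZNF729, ZNF492, ZNF99, ZNF728, ZNF536, ZNF223, ZNF112, ZNF229, ZNF114, ZNF677, ZNF471, ZNF835 and ZNF418. The filter of the test, which works on group sizes, passed 215 genes, among them 6 below that mean count. Exons of 140 of the 249 genes overlap those of another gene on either strand, and how reads in such stretches were assigned is not given in the sources used here.

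These genes were weakly expressed, and those without a KRAB box were the most abundant. On the deposited FPKM scale, which corrects for length, the median of the 184 tested KRAB genes was 0.485 in untreated OCI-LY3 and 0.643 in untreated SU-DHL6. The 31 tested genes without a KRAB box had medians of 2.73 and 2.69 FPKM, close to the 2.61 and 2.70 FPKM of the 12490 other protein-coding genes tested. The 5 highest over all libraries were ZNF581, ZNF428, ZNF787, ZNF296 and ZNF865, none of which encodes a KRAB box. In untreated OCI-LY3 they lay at 26.7, 11.5, 25.1, 15.7 and 15 FPKM in that order, and in untreated SU-DHL6 at 38.8, 32.5, 23.0, 17.4 and 6.45 FPKM. The spread between replicates was wide: of the genes at 2 CPM or more in a group, 9.68% to 13.0% varied over 2-fold between the 3 replicates of a group, against 3.66% to 6.27% of all genes. ZNF440, picked after its values were seen, is an example, with 0.209, 5.27 and 4.56 CPM in the untreated OCI-LY3 libraries. These percentages were not matched for level above 2 CPM, and the part of level in their difference was not tested.

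Selinexor raised more of these genes than it lowered in SU-DHL6. Of the 215 tested, 64 were called higher and 19 lower (edgeR quasi-likelihood test, Benjamini-Hochberg adjusted p under 0.05 over 16474 genes), with a median log2 fold change of 0.33. Over all genes tested, 20.4% were called higher and 22.8% lower, with a median of 0.00, against 29.8% and 8.84% of these genes. In OCI-LY3, 42 were called higher and 24 lower, or 19.5% and 11.2%, with a median of 0.09. The share higher there lay below the 22.2% called higher over all genes, and the share lower was also below the 22.2% called lower.

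The scaling of the libraries moves these counts. When libraries were scaled by total counts alone, the median of all genes shifted to 0.27 in SU-DHL6 and -0.09 in OCI-LY3, and 91 of these genes were called higher and 10 lower in SU-DHL6, and 33 higher and 34 lower in OCI-LY3. Relative to that shift, the median of these genes (0.59) stayed above that of all genes in SU-DHL6. The GC content of the longest transcript, 41.8% at the median for the KRAB genes, 60.7% for those without a KRAB box and 48.7% for other protein-coding genes, moved with the SU-DHL6 response. Across the 170 genes with a mean count of at least 10 in every group, Pearson's r between GC content and the log2 fold change was -0.44 in SU-DHL6 and 0.11 in OCI-LY3 (Spearman's rho -0.40 and 0.14), a description over genes that share libraries. Over 12191 genes of all kinds the r values were -0.24 and 0.11. With offsets for GC content and length, 53 genes were higher and 17 lower in SU-DHL6, or 24.7% and 7.91% against 22.4% and 22.8% of all genes. In SU-DHL6 the share higher was thus near the background after that adjustment, and the share lower stayed below it.

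The KRAB genes and those without a KRAB box differed in SU-DHL6 in their counts of calls. Of 184 KRAB genes, 56 rose and 11 fell, or 30.4% and 5.98%, with a median log2 fold change of 0.40. Of 31 genes without the box, 8 rose and 8 fell, or 25.8% each, with a median of 0.02. Over all genes tested, 20.4% rose and 22.8% fell. With the GC and length offsets the medians lay closer. They were 0.25 with 44 rises and 10 falls for the KRAB genes and 0.20 with 9 rises and 7 falls for the others. Under those offsets 24.7% of all 215 zinc finger genes rose, near the 22.4% of all genes. Without both libraries that stood apart, 10 genes without the box rose and 10 fell, with a median of -0.17. The difference between these groups was not tested, and the 56 rises became 37 without the second treated SU-DHL6 library. In OCI-LY3, 37 KRAB genes rose and 21 fell, or 20.1% and 11.4%, the 37 becoming 24 without the third treated library. Of genes without the box, 5 rose and 3 fell (8 and 4 without both libraries that stood apart), or 16.1% and 9.68%. These shares all lay below the 22.2% of all genes called in each direction. The summed level of the KRAB genes was 1777, 1487 and 1464 CPM in untreated SU-DHL6 and 1922, 2289 and 2052 CPM in treated libraries, which do not overlap. In OCI-LY3 the sums were 1380, 1346 and 1336 CPM untreated and 1532, 1603 and 1599 CPM treated. Genes without a KRAB box summed to 707, 874 and 841 CPM in untreated and 782, 725 and 755 CPM in treated SU-DHL6, where the groups overlap.

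**Figure D1:**
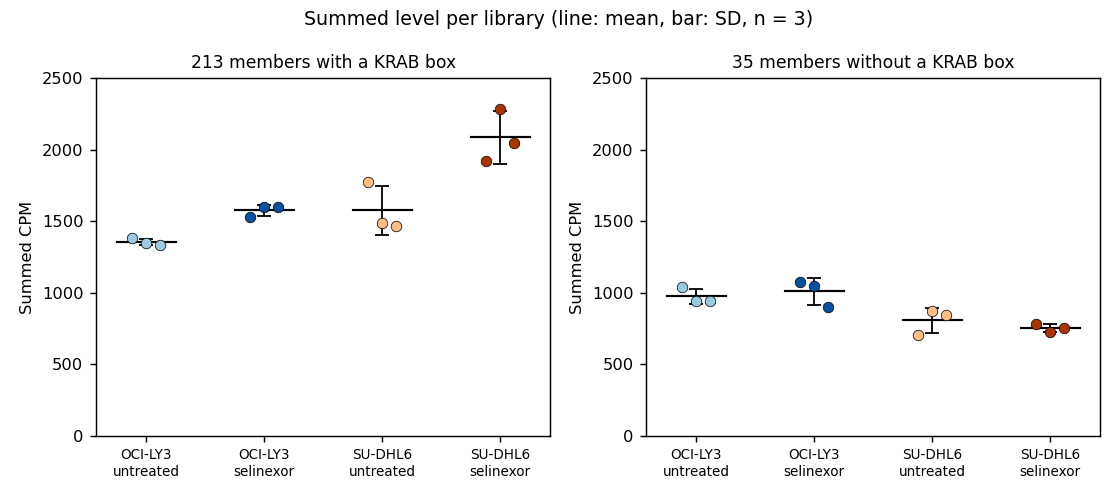
Summed CPM of the 213 genes with and the 35 genes without a KRAB box in each of the 12 libraries, with the mean and SD of each group of 3. On this TMM scale the treated libraries of both lines lie above the untreated ones for the KRAB genes, and the groups overlap for the others.

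The ZNF genes of other chromosomes gave similar counts. Of the 222 tested of 264, 73 were higher and 32 lower in SU-DHL6 (32.9% and 14.4%), and 41 higher and 27 lower in OCI-LY3 (18.5% and 12.2%). Protein-coding genes of chromosome 19 other than these went the other way in SU-DHL6, with 65 higher and 293 lower of 783 (8.30% and 37.4%) and a median log2 fold change of -0.29.

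**Figure D2:**
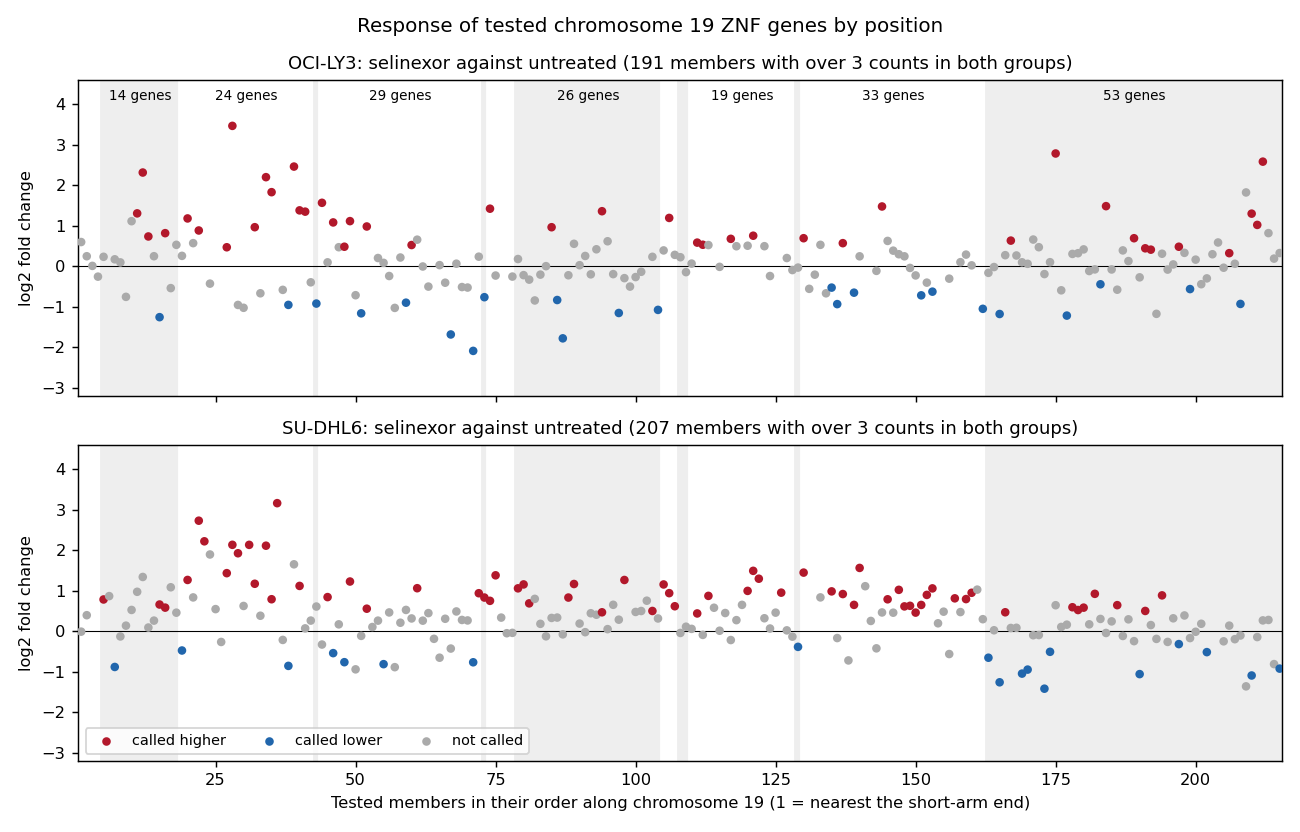
The log2 fold change of selinexor against untreated for each tested gene with over 3 counts in both groups (191 in OCI-LY3, 207 in SU-DHL6), in order along chromosome 19, with neighbourhoods in alternating white and grey bands and calls at an adjusted p under 0.05 in colour. In SU-DHL6 the second large band (24 genes) holds the highest points, the band of 33 genes has rises and no falls, and the last band (53 genes) has more falls than rises.

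In the main test, among neighbourhoods with more than 5 tested genes, rises were most frequent from 11.5 to 12.6 Mb, which holds 26 genes. Of the 24 tested, 12 rose and 2 fell in SU-DHL6 and 10 rose and 2 fell in OCI-LY3, with median log2 fold changes of 1.14 and 0.47, the latter being 0.26 without the first untreated OCI-LY3 library. Without both libraries that stood apart, 13 rose and 1 fell in SU-DHL6. Leaving out 1 library at a time gave 9 to 13 rises in SU-DHL6 and 6 to 11 in OCI-LY3, the 6 being without the third treated OCI-LY3 library. With the GC and length offsets the counts were 12 rises and 1 fall, and 10 rises and 2 falls. Among the 10 tested genes there whose exons overlap no other gene, 4 rose and 0 fell in SU-DHL6 with a median of 0.81, and 2 rose and 1 fell in OCI-LY3 with a median of -0.20. A total of 8 rose in both lines: ZNF627, ZNF441, ZNF700, ZNF763, ZNF20, ZNF44, ZNF563 and ZNF564, of which ZNF627, ZNF700, ZNF20 and ZNF564 are named after their values were seen.

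ZNF44 (ENSG00000197857, chromosome 19, 12224686 to 12294887, minus strand) encodes a KRAB protein with 14 fingers and rose in both lines. Its exons overlap those of AC012618.3. It was at 4.67, 5.27 and 5.88 CPM in untreated and 21.7, 25 and 25.7 CPM in treated OCI-LY3, a log2 fold change of 2.20 ± 0.18 (SE, adjusted p = 3.61e-07). In SU-DHL6 it was at 6.71, 4.91 and 4.12 CPM untreated and 20.2, 25.4 and 22.5 CPM treated, a change of 2.11 ± 0.18 (adjusted p = 5.23e-07). Every treated library lay above every untreated one, and the difference between the responses was -0.09 ± 0.25. ZNF763 (11965037 to 11980381, 6 fingers), which overlaps a neighbouring transcript, went from 0.209, 0.281 and 0.808 CPM to 4.89, 3.84 and 5.66 CPM in OCI-LY3, the largest rise of these genes there that met the naming rule (3.46 ± 0.36, adjusted p = 3.78e-06). In SU-DHL6 it went from 1.56, 1.68 and 2.38 CPM to 9.03, 7.46 and 8.13 CPM (2.13 ± 0.29, adjusted p = 4.36e-05).

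ZNF441 (ENSG00000197044, 11767000 to 11784078, plus strand, 14 fingers) rose more in SU-DHL6. There it went from 5.63, 3.36 and 3.97 CPM to 23.4, 32.2 and 30.2 CPM (2.73 ± 0.26, adjusted p = 1.82e-06). In OCI-LY3 it was at 6.69, 7.37 and 4.41 CPM untreated and 8.54, 10.4 and 15.1 CPM treated (0.88 ± 0.25, adjusted p = 0.0116), a call lost without the third untreated or the third treated OCI-LY3 library (adjusted p = 0.0568 to 0.0659). The responses differed by 1.85 ± 0.36 (adjusted p = 0.00113). ZNF563 (12317477 to 12333720, 10 fingers) rose by 1.82 ± 0.26 in OCI-LY3 (adjusted p = 5.5e-05) and by 0.79 ± 0.23 in SU-DHL6 (adjusted p = 0.0122, or 0.0601 without the second untreated SU-DHL6 library).

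Other genes of this neighbourhood were all but silent in OCI-LY3. ZNF844 (12064699 to 12081565) was at 13.7, 13.4 and 15.5 CPM in untreated and 55.5, 74.2 and 56.4 CPM in treated SU-DHL6 (2.13 ± 0.26, adjusted p = 2.89e-05), against 3 counts in all untreated and 5 in all treated OCI-LY3 libraries together. ZNF442 (12345949 to 12365905) rose from 1.42, 1.18 and 1.23 CPM to 10.4, 13.2 and 10.8 CPM in SU-DHL6, the largest rise among these genes there (3.16 ± 0.35, adjusted p = 1.85e-05), and had 4 counts in 1 untreated OCI-LY3 library and 0 in the other OCI-LY3 libraries. ZNF439 (11848726 to 11883750) was at 16.3, 10.4 and 11.9 CPM in untreated and 16.8, 21.5 and 18.0 CPM in treated SU-DHL6 (0.54 ± 0.25, adjusted p = 0.105). In OCI-LY3 it had 23 counts over the untreated libraries and 0 over the treated ones, at least 7.16-fold lower against a floor of 3 counts per group. ZNF433 rose in SU-DHL6 (1.92 ± 0.30, adjusted p = 0.000163) and did not pass the test in OCI-LY3 (-0.96 ± 0.52, adjusted p = 0.152).

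**Figure D3:**
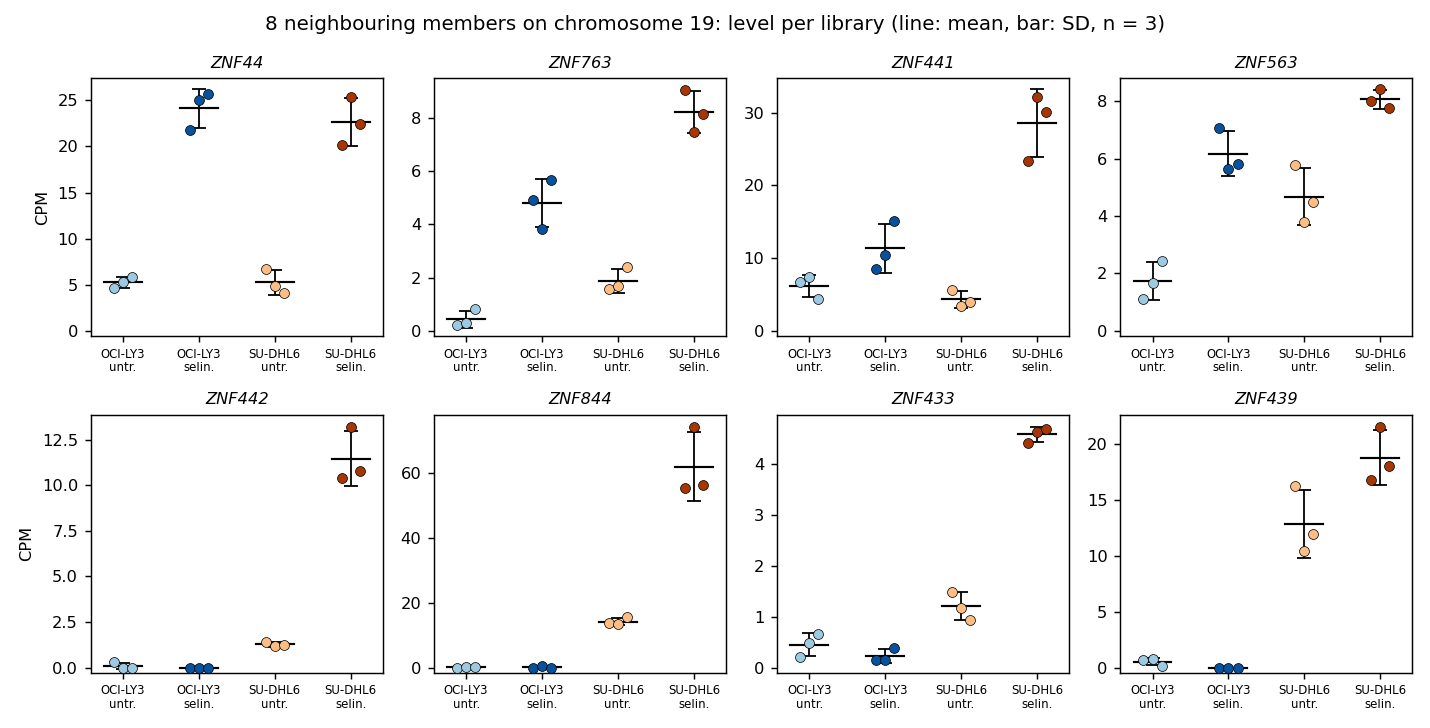
CPM of 8 genes from 11.5 to 12.6 Mb in each library, with the mean (line) and SD (bar) of each group of 3. ZNF44, ZNF763, ZNF441 and ZNF563 are higher in the treated libraries of both lines, while ZNF442, ZNF844, ZNF433 and ZNF439 are near 0 in OCI-LY3.

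The promoters of this neighbourhood share sequence features. Promoters of 300 bases (250 before to 50 after the start, RefSeq, GRCh38.p14) were found for 217 of the 249 genes and searched on both strands. Of the 25 from 11.5 to 12.6 Mb, 24 hold GGGCGG (the core of GC boxes), 23 hold CCAAT and 22 hold both, or 88.0%. Both are in 32.3% of the other 192, in 15.1% of all 27305 promoters and in 21.0% of 14671 promoters of other protein-coding genes. CCGGAAG, a core of ETS-type sites, is in 2 of the 25 and in 50.5% of the other 192, against 10.7% of all promoters. From 19.7 to 24.1 Mb, all 29 promoters hold CCAAT, 21 hold CCGGAAG and 22 hold both GGGCGG and CCAAT. Of the 29 genes tested there, 5 rose in SU-DHL6, or 17.2% against 20.4% of all genes. The 5 became 8 without the first untreated SU-DHL6 library and 9 without both libraries that stood apart. TATAAA is in 4 of the 217, or 1.84%, against 12% of all promoters. TGACGTCA is in 3.23% of the 217 and 1.98% of all, and TTTGGCGC in 4.15% and 0.659%. Over all neighbourhoods, GGGCGG is in 67.2% and CCAAT in 50% of 58 promoters of genes called higher in SU-DHL6. Among 37 promoters of genes called higher in OCI-LY3 each is in 64.9%. The shares over the 217 are 68.2% and 53.9%. Such matches describe the letters and show no binding, and a link to the response was not tested.

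The 150 bases before the RefSeq start are shown for ZNF44 and ZNF441, which rose in both lines, for ZNF121 and ZNF264, whose responses differed between the lines, and for ZNF615, which had counts in OCI-LY3 only, all chosen after their values were seen. Capitals mark the motifs searched, on either strand.
ZNF44 (chr19:12294884-12295033, minus strand): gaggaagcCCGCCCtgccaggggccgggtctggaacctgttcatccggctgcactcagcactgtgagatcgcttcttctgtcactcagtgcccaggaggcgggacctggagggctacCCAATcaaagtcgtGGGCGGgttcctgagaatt
ZNF441 (chr19:11766850-11766999, plus strand): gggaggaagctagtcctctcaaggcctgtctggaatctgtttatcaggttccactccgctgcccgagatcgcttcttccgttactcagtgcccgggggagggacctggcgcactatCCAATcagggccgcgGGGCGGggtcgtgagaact
ZNF121 (chr19:9584505-9584654, minus strand): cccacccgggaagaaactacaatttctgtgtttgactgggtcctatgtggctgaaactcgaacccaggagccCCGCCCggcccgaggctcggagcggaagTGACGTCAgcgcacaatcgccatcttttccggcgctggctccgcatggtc
ZNF264 (chr19:57191350-57191499, plus strand): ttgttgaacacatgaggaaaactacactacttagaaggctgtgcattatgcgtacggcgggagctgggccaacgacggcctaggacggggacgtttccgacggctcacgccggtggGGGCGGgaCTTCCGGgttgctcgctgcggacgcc
ZNF615 (chr19:52008212-52008361, minus strand): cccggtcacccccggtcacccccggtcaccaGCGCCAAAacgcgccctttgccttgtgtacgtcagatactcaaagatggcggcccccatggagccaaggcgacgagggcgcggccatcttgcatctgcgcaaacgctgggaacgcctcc
The CCAAT of ZNF44 and ZNF441 begins 33 and 34 bases before the start and is followed by GGGCGG, 19 bases before the start in both. ZNF44 also holds GGGCGG on the other strand, beginning 142 bases before the start and so ahead of its CCAAT. In ZNF442 and ZNF844 the only GGGCGG found lies ahead of CCAAT, with GGGCGG 84 and 88 and CCAAT 63 and 67 bases before the RefSeq start. ZNF121 holds TGACGTCA, ZNF264 holds CCGGAAG (on the other strand), and ZNF615 holds neither GGGCGG nor CCAAT in these bases.

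The neighbourhood from 51.6 to 53.6 Mb, where all 40 genes encode a KRAB box, had rises and no falls in SU-DHL6. In SU-DHL6 16 of 33 tested rose and 0 fell (median 0.65), or 48.5% and 0% against 20.4% and 22.8% of all genes. With 1 library left out at a time, 11 to 17 rose and 0 fell. In OCI-LY3 3 rose and 6 fell, or 9.09% and 18.2%, each below the 22.2% of all genes. The 3 became 1 without the third untreated or the third treated OCI-LY3 library, the 6 became 1 to 4 when any single OCI-LY3 library was left out, and 2 rose and 2 fell without both libraries that stood apart. The test of the difference between the responses called 10 of the 33 higher in SU-DHL6 and 0 lower. The 10 are 30.3%, against 17.0% of all genes higher and 19.9% lower. The 16 include ZNF480, from 14.9, 11.2 and 10.3 CPM to 28.7, 47.7 and 31.3 CPM (1.56 ± 0.20, adjusted p = 3.19e-05), and ZNF160, from 16, 9.26 and 10.0 CPM to 20.8, 26.6 and 25.9 CPM (1.06 ± 0.24, adjusted p = 0.00286), both named after their values were seen. From 36.2 to 37.8 Mb, 8 of 26 rose and 0 fell in SU-DHL6, against 2 and 4 in OCI-LY3. The 8 are 30.8%, near the 29.8% of all 215 tested zinc finger genes and above the 20.4% of all genes. In OCI-LY3 the shares were 7.69% and 15.4%, each below the 22.2% of all genes. The 8 became 5 without the third untreated and 4 without the second treated SU-DHL6 library, and 5 with the GC and length offsets. The 2 and 4 in OCI-LY3 became 1 and 3 without the first untreated, 3 and 2 without the first treated and 1 and 5 without the third treated library, and 1 and 4 without both libraries that stood apart. From 43.5 to 45.1 Mb, 6 of 19 rose and 0 fell in SU-DHL6 and 4 rose and 0 fell in OCI-LY3. The rises are 31.6% in SU-DHL6, near the 29.8% of all 215 tested zinc finger genes. They are 21.1% in OCI-LY3, near the 22.2% of all genes. In SU-DHL6, 1 fell without the first untreated SU-DHL6 library, and also without both libraries that stood apart.

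The 59 genes from 55.5 to 58.5 Mb, near the end of the long arm, held 11 of the 19 falls in SU-DHL6. Of those tested, 15.1% rose and 20.8% fell in SU-DHL6, each below the 20.4% and 22.8% of all genes. Of 53 tested, 8 rose and 11 fell there, with a median of 0.00, and the 8 rises became 2 to 5 when any untreated or the second or the third treated SU-DHL6 library, or the third untreated OCI-LY3 library, was left out. The 11 falls became 7 without the third untreated SU-DHL6 library and with total counts, where 12 rose. The falls include abundant genes without a KRAB box. ZNF581 (55635459 to 55645622, 4 fingers), whose exons overlap those of CCDC106 and ZNF580, went from 107, 135 and 139 CPM to 71.7, 52.0 and 60.2 CPM (-1.05 ± 0.19, adjusted p = 0.000802). ZNF787 (56087366 to 56121280, 7 fingers) went from 72.8, 102 and 101 CPM to 50.9, 44.4 and 47.7 CPM (-0.95 ± 0.14, adjusted p = 9.86e-05). Neither passed the test in OCI-LY3, where their log2 fold changes were 0.09 ± 0.19 and 0.06 ± 0.14, and the responses of both differed between the lines (adjusted p = 0.00553 and 0.00123).

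ZNF524, a zinc finger protein known to bind telomeres, fell in both lines. It went from 17.3, 15 and 17.8 CPM to 6.60, 6.92 and 8.53 CPM in OCI-LY3 (-1.18 ± 0.14, adjusted p = 1.6e-05) and from 15.4, 14.5 and 16.1 CPM to 6.76, 6.05 and 6.36 CPM in SU-DHL6 (-1.26 ± 0.14, adjusted p = 9.09e-06). Its exons overlap those of FIZ1, and the difference between the responses was -0.08 ± 0.20. The other falls named for SU-DHL6 were those of the KRAB gene ZNF583 (-1.42 ± 0.31, adjusted p = 0.00208), ZNF837 (-1.09 ± 0.20, adjusted p = 0.000446) and the KRAB gene ZNF530 (-1.06 ± 0.32, adjusted p = 0.0156). The call of ZNF530 was lost without the third untreated or the third treated SU-DHL6 library (adjusted p = 0.0658 to 0.0665).

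In OCI-LY3, ZNF264 (57191500 to 57222846, 13 fingers) rose from 5.64, 8.07 and 5.00 CPM to 44.5, 44.1 and 40.2 CPM (2.78 ± 0.40, adjusted p = 0.000237). It did not pass the test in SU-DHL6, where the groups overlapped, at 2.58, 11 and 9.10 CPM untreated and 11.4, 14.4 and 9.63 CPM treated (0.64 ± 0.39, adjusted p = 0.214). ZNF101 (19668796 to 19683509) rose from 17.3, 19.3 and 23.7 CPM to 75.2, 60.2 and 42.7 CPM (1.56 ± 0.18, adjusted p = 9.13e-06). ZNF709 rose by 2.46 ± 0.85 (adjusted p = 0.0389), a call lost without any 1 of 6 libraries (adjusted p = 0.0589 to 0.0990), namely the second or the third untreated OCI-LY3, each treated OCI-LY3 and the third untreated SU-DHL6 library.

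The falls in OCI-LY3 were led by ZNF726, ZNF850 and ZNF724, 3 KRAB genes. ZNF726 (23914876 to 23945159, 16 fingers) went from 5.64, 7.09 and 6.17 CPM to 1.48, 1.43 and 1.51 CPM (-2.09 ± 0.20, adjusted p = 1.64e-06), and in SU-DHL6 fell by 0.77 on the log2 scale (SE 0.17, adjusted p = 0.00249). ZNF850 (36714383 to 36772825, 29 fingers) went from 8.92, 9.06 and 9.55 CPM to 2.17, 3.23 and 2.57 CPM (-1.78 ± 0.21, adjusted p = 1.38e-05), and was at 3.65 ± 0.656 and 3.45 ± 0.675 CPM in untreated and treated SU-DHL6 (SD, n = 3). ZNF724 fell by 1.69 on the log2 scale (SE 0.28, adjusted p = 0.000224), and ZNF460 by 1.22 (SE 0.18, adjusted p = 0.000106).

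The lines shared some calls and opposed each other in others. Of the 42 rises in OCI-LY3 and 64 in SU-DHL6, 19 were common, or 45.2% and 29.7% of each list, against 26.8% and 29.2% over all genes. Of the 24 and 19 falls, 3 were common (ZNF443, ZNF726 and ZNF524), or 12.5% and 15.8%, against 39.8% and 38.7% over all genes. A further 4 rose in OCI-LY3 and fell in SU-DHL6 (ZNF506, ZNF93, ZNF586 and ZNF837). They are 9.52% of the OCI-LY3 rises and 21.1% of the SU-DHL6 falls, against 19.9% and 19.4% over all genes. Another 6 fell in OCI-LY3 and rose in SU-DHL6 (ZNF121, ZNF507, ZNF614, ZNF766, ZNF888 and ZNF160). They are 25% of the OCI-LY3 falls and 9.38% of the SU-DHL6 rises, against 15.2% and 16.5% over all genes. These lists were named after their values were seen. Across the 170 genes with 10 counts or more in every group, the responses of the lines had a Pearson's r of 0.23 and a Spearman's rho of 0.18, against 0.29 and 0.20 over 12220 genes of all kinds, given as descriptions.

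The test of the difference between the responses (SU-DHL6 minus OCI-LY3) called 37 of the 215 higher and 21 lower, or 17.2% and 9.77%, against 17.0% and 19.9% of all genes. With total counts it called 66 and 9. ZNF121 (9560353 to 9584533, minus strand), whose match found no KRAB box and 9 fingers, had opposite calls. It went from 65.3, 62.2 and 59.9 CPM to 23.7, 27.3 and 27.3 CPM in OCI-LY3 (-1.26 ± 0.16, adjusted p = 1.78e-05) and from 25.7, 19.4 and 15.7 CPM to 30.7, 36.5 and 28.7 CPM in SU-DHL6 (0.66 ± 0.16, adjusted p = 0.0037). In both lines the groups did not overlap, and the responses differed by 1.92 ± 0.22 (adjusted p = 1.78e-05). ZNF837 (58367618 to 58381060) went the other way, from 3.06, 2.88 and 2.13 CPM to 7.14, 7.52 and 5.21 CPM in OCI-LY3 (1.29 ± 0.21, adjusted p = 0.000209) and from 10.1, 12.2 and 10.3 CPM to 4.26, 5.19 and 5.78 CPM in SU-DHL6. Its responses differed by -2.39 ± 0.29 (adjusted p = 2.62e-05), those of ZNF101 by -1.89 ± 0.25 (adjusted p = 5.63e-05) and those of ZNF506 by -1.62 ± 0.23 (adjusted p = 9.84e-05). ZNF506 rose by 1.08 ± 0.17 in OCI-LY3 and fell by 0.54 in SU-DHL6 (SE 0.15, adjusted p = 0.0105, or 0.175 with total counts).

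**Figure D4:**
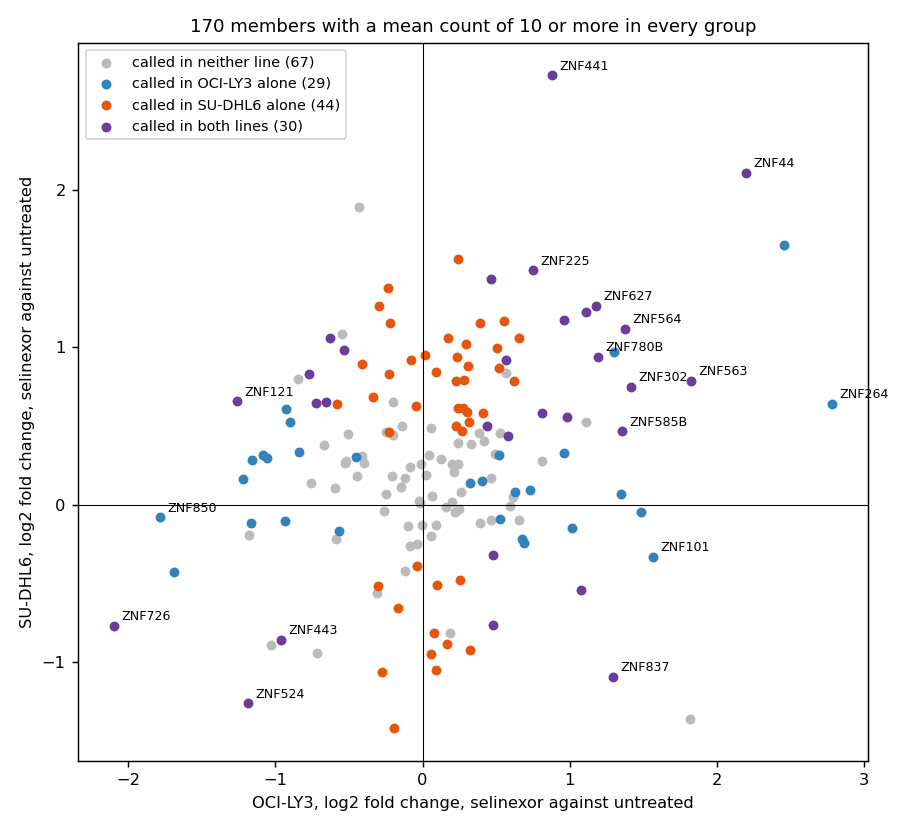
The log2 fold change in OCI-LY3 (horizontal) and SU-DHL6 (vertical) of the 170 genes with a mean count of at least 10 in every group, coloured by the line in which the change passed an adjusted p of 0.05. ZNF44 (2.20 and 2.11) is high in both lines, and ZNF121 and ZNF837 lie in opposite corners.

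The untreated lines differed in 131 of these genes. Of 215, 47 were higher in OCI-LY3 and 84 were higher in SU-DHL6 (21.9% and 39.1%), against 33.6% and 33.7% of all genes, and the median log2 ratio of OCI-LY3 to SU-DHL6 was -0.23. The ZNF genes of other chromosomes were near to this, with 43 and 87 of 222. The counts varied by neighbourhood: from 19.7 to 24.1 Mb 1 of 29 genes was higher in OCI-LY3 and 20 were higher in SU-DHL6, and from 34.7 to 35 Mb 0 and 4 of 5. From 55.5 to 58.5 Mb it was 18 and 5 of 53 (18 and 11 with the GC and length offsets), and from 51.6 to 53.6 Mb 11 and 16 of 33.

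Some genes were expressed in 1 line and all but silent in the other, a class set after the values were seen. It takes a mean count of at least 10 over the 6 libraries of 1 line and at most 3 counts over all 6 libraries of the other. There were 17 such genes for SU-DHL6 and 7 for OCI-LY3 of the 216 with that mean in either line, or 7.87% and 3.24%, against 2.05% and 2.99% of the 12384 other protein-coding genes, 1.69% and 1.43% of the 767 others on chromosome 19, and 4.07% and 0.905% of 221 ZNF genes on other chromosomes. All but 1 of the 24 (ZNF358) encode a KRAB box. From 43.5 to 45.1 Mb, 6 genes were of the SU-DHL6 class (ZNF404, ZNF155, ZNF284, ZNF234, ZNF235 and ZNF233) and 0 of the OCI-LY3 class. Over the 6 OCI-LY3 libraries ZNF155 had 3 counts, ZNF233 2 and ZNF235 1, and the others had 0. From 51.6 to 53.6 Mb both kinds were found side by side: ZNF577, ZNF649 and ZNF615 in OCI-LY3, and ZNF528, ZNF415, ZNF347 and ZNF845 in SU-DHL6. Those not selected by the naming rule are named after their values were seen.

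ZNF845 (53333749 to 53354869, plus strand, 26 fingers) had 0 counts in all OCI-LY3 libraries and was at 11.7, 6.46 and 8.23 CPM in untreated SU-DHL6. With 390 counts over those 3 libraries, it was at least 123-fold lower in untreated OCI-LY3 against the floor of 3 counts. ZNF347 (53124072 to 53159075, 17 fingers), with 0 counts in untreated OCI-LY3 and 8.75, 7.64 and 11.1 CPM in untreated SU-DHL6, was at least 128-fold lower. ZNF415 and ZNF69 were at least 54.5-fold and 52.9-fold lower, ZNF235 at least 60.5-fold and ZNF781 at least 48.2-fold. Of these, ZNF781 shares exon bases with ZFP30 and ZNF235 with ZNF233. In the other direction, ZNF615 (51991332 to 52008230, minus strand, 19 fingers) had 0 counts in SU-DHL6 and 5.50, 6.25 and 6.83 CPM in untreated OCI-LY3, at least 92.1-fold higher. ZNF606 was at least 55.0-fold higher and ZNF649 at least 38.8-fold. With 1 and 3 counts in untreated SU-DHL6, ZNF77 and ZNF793 had ratios of 129 and 42.0 (95% intervals for counting error 22.7 to 5140 and 14 to 206). ZNF432, which overlaps ZNF841, was at 10.0 ± 0.527 CPM in untreated OCI-LY3 and 0.242 ± 0.0869 CPM in untreated SU-DHL6 (5.30 ± 0.45, adjusted p = 1.03e-07).

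**Figure D5:**
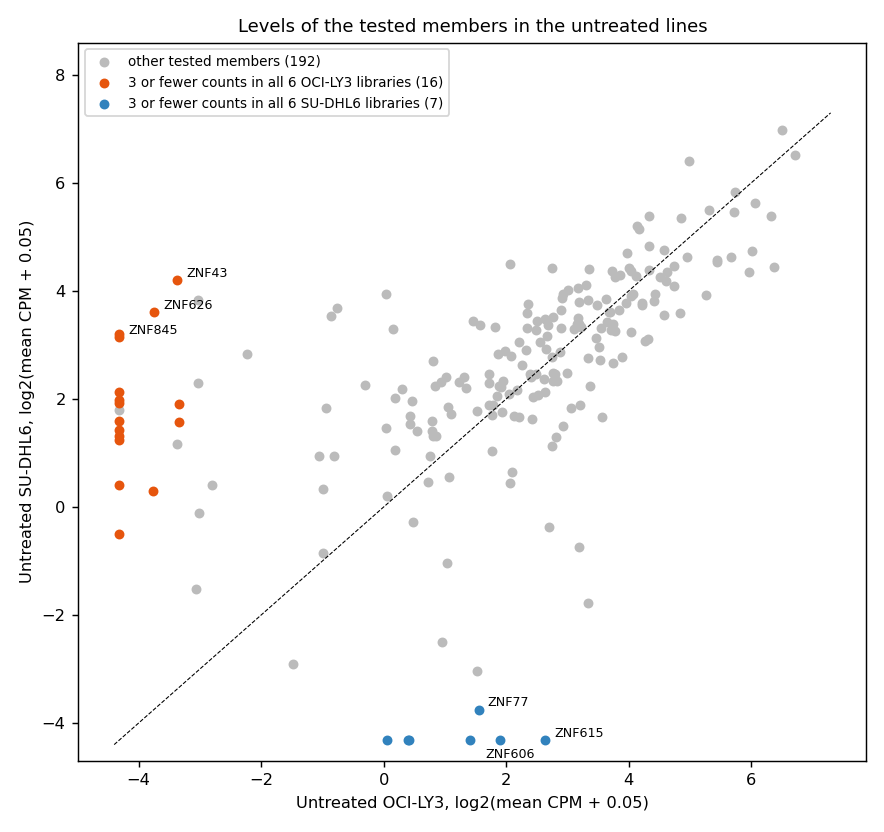
The mean CPM of each tested gene in untreated OCI-LY3 (horizontal) and untreated SU-DHL6 (vertical), as log2 of CPM + 0.05, with the line of equality dashed. The 16 tested genes with at most 3 counts in the 6 OCI-LY3 libraries lie at the left edge, the 7 with at most 3 counts in the 6 SU-DHL6 libraries lie at the bottom, and ZNF470, the last of the 17, did not pass the test's filter.

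In SU-DHL6, ZNF845 was at 15.1, 19.8 and 11.2 CPM after treatment, which overlaps the untreated libraries (0.81 ± 0.27, adjusted p = 0.0338), a call lost without any 1 of 4 SU-DHL6 libraries (adjusted p = 0.0745 to 0.138): the second or the third untreated and the first or the second treated. ZNF347 (0.48 ± 0.23, adjusted p = 0.119) and ZNF415 (0.19 ± 0.27, adjusted p = 0.608) did not pass the test there, and neither did ZNF615 in OCI-LY3 (-0.67 ± 0.27, adjusted p = 0.0665). ZNF432 fell in treated OCI-LY3 (-0.94 ± 0.32, adjusted p = 0.0267), a call lost without any 1 of the 6 OCI-LY3 libraries (adjusted p = 0.0515 to 0.0767).

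ZNF274, which guides SETDB1 and TRIM28 to the ends of zinc finger genes, was at 17.9 ± 2.31 and 22.4 ± 2.18 CPM in untreated and treated OCI-LY3 (0.32 ± 0.12, adjusted p = 0.0379, lost without any 1 of 5 libraries at 0.0549 to 0.151 and with total counts at 0.2) and at 35.3 ± 0.827 and 38.8 ± 0.628 CPM in SU-DHL6 (0.14 ± 0.11, adjusted p = 0.357). The 5 were the second and the third untreated and treated OCI-LY3 libraries and the third untreated SU-DHL6 library. ZNF91, which silences SVA retrotransposons, did not pass the test in either line (0.06 ± 0.25 and 0.49 ± 0.24). ZNF93, which silences LINE-1 elements, rose in OCI-LY3 from 21.5, 22.0 and 16.8 to 24.7, 28.8 and 30.6 CPM (0.48 ± 0.16, adjusted p = 0.0227) and fell in SU-DHL6 from 34.2, 26.5 and 24.7 to 14.8, 18.9 and 16.5 CPM (-0.77 ± 0.16, adjusted p = 0.00123). The responses differed by -1.24 ± 0.22 (adjusted p = 0.000573), while the OCI-LY3 call was lost without the third untreated or the second or the third treated library (adjusted p = 0.0579 to 0.104) and with total counts (0.0987). ZNF224, a KRAB repressor of glycolytic gene ALDOA, rose in SU-DHL6 (0.99 ± 0.22, adjusted p = 0.00223), with 0.50 ± 0.23 in OCI-LY3 (adjusted p = 0.0878). ZNF331, an imprinted gene, fell in OCI-LY3 (-1.05 ± 0.36, adjusted p = 0.0297, lost without the first or the third untreated library at 0.0648 to 0.0802), with 0.29 ± 0.31 in SU-DHL6.

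Of the other genes chosen by role, ZNF675, an inhibitor of TRAF6 signalling, ZNF382 and ZNF568 passed the test in neither line, with log2 fold changes of -0.52 ± 0.23, 0.00 ± 0.53 and 0.25 ± 0.35 in OCI-LY3 and 0.28 ± 0.22, -0.13 ± 0.44 and -0.03 ± 0.31 in SU-DHL6. ZNF43 was at 21.9, 15.2 and 17.8 CPM in untreated SU-DHL6, against 2 counts over the untreated OCI-LY3 libraries, a ratio of 385 (95% interval for counting error 106 to 3180).

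In both lines more genes of the machinery through which KRAB proteins silence their targets were called lower than higher. Of 33 listed genes, 4 rose and 15 fell in OCI-LY3, and 9 rose and 14 fell in SU-DHL6, or 45.5% and 42.4% lower against the 22.2% and 22.8% of all genes. The shares called higher were 12.1% and 27.3%, against 22.2% and 20.4% of all genes. TRIM28, the KRAB corepressor, fell in both lines (-0.48 ± 0.16, adjusted p = 0.0233, and -0.45 ± 0.16, adjusted p = 0.033). SETDB1, which methylates histone H3, fell in SU-DHL6 (-0.34 ± 0.09, adjusted p = 0.00791) and did not pass the test in OCI-LY3 (0.23 ± 0.09, adjusted p = 0.0503). The maintenance DNA methylation genes DNMT1 and UHRF1 fell by 1.32 and 1.51 on the log2 scale in OCI-LY3 (SE 0.09 and 0.13, adjusted p = 5.8e-08 and 4.99e-07) and by 1.59 and 2.83 in SU-DHL6 (SE 0.09 and 0.14, adjusted p = 8.18e-09 and 2.38e-09). ATF7IP2, a relative of the SETDB1 partner ATF7IP, and CHD3 rose in both lines, the former by 0.81 ± 0.17 and 1.13 ± 0.17. ATRX, a chromatin remodeller of heterochromatin, rose in SU-DHL6 (1.34 ± 0.19, adjusted p = 8.63e-05), with -0.13 ± 0.19 in OCI-LY3. None of the alternative settings was applied to the listed genes. With total counts the median log2 fold change of all genes shifted to 0.27 in SU-DHL6 and -0.09 in OCI-LY3. The counts for this list and its smaller changes, such as the falls of TRIM28 and SETDB1 in SU-DHL6, may thus depend on the scaling. Whether the changes of the listed genes bear on the zinc finger genes was not tested.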

How the data were processed

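RNA was extracted with RNeasy columns and made into libraries with a SMARTER kit, per the labels' protocols. The authors deposited a table of raw counts per gene and of FPKM (fragments scaled by gene length and library total), and its identifiers match 58039 of 58302 genes of GENCODE release 29 (human, GRCh38). The submitters' processing notes name builds of the mouse genome, whereas aligner, strand setting and handling of shared reads are not given in the sources used. The deposited FPKM values were used only to compare levels between genes.

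From the counts, genes were filtered by group with filterByExpr (16474 genes), scaled by TMM and tested with edgeR 4.0.16 (robust quasi-likelihood, R 4.3.3, 1 coefficient per group, all 12 libraries), with Benjamini-Hochberg adjustment over all genes and calls at an adjusted p under 0.05. Each SE was taken as |log2 fold change| over the root of its F statistic. The code was tested on simulated data. Alternatives were RLE and total-count scaling, DESeq2 1.42.0, limma 3.58.1 (voom), other filters and thresholds, GC and length offsets, separate lines, a replicate block, and each library left out; leaving out both libraries that stood apart was added after seeing the data. The members, lists and rules were chosen with earlier results of these data known.

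Named genes were the 6 largest rises and falls per line among called genes whose mean log2 CPM reached 1, with no overlap between groups, the 5 largest response differences and 6 largest differences between untreated lines per direction, the 5 highest in FPKM, and 11 chosen by role. Zero-count groups were set at a floor of 3 counts, and count ratios carry exact 95% intervals. Intervals and floors cover counting error only. The 17 genes at 0 in every library could not be tested.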

Additional observations from a re-analysis of the deposited data

Results flagged for a closer look

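The responses of the lines differed, by the edgeR test of the difference over all genes, for 23 of the genes named by rule. Some of these, such as ZNF121 and ZNF837, were named because this same test called them with the largest differences. Others, such as ZNF850 and ZNF724, were named for a large called change in OCI-LY3. The count of 23 is thus partly set by how the genes were chosen and is not a rate. The adjusted p-values for genes higher in the SU-DHL6 response were 1.78e-05 for ZNF121, 0.000554 for ZNF850, 0.000979 for ZNF439, 0.00113 for ZNF441, 0.00114 for ZNF460, 0.00139 for ZNF726, 0.00187 for ZNF433, 0.00835 for ZNF442, 0.0166 for ZNF724, 0.0356 for ZNF793 and 0.0393 for ZNF331. For genes lower in the SU-DHL6 response they were 2.62e-05 for ZNF837, 5.63e-05 for ZNF101, 9.84e-05 for ZNF506, 0.000573 for ZNF93, 0.00123 for ZNF787, 0.00553 for ZNF581, 0.0115 for ZNF264, 0.0188 for ZNF428, 0.0283 for ZNF563, 0.035 for ZNF772, 0.0416 for ZNF763 and 0.0439 for ZNF583.

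Those of ZNF439 and ZNF442 rest on 0 counts in treated OCI-LY3, and that of ZNF442 was lost without the first untreated OCI-LY3 library. The differences of ZNF331, ZNF763 and ZNF793 were each lost without any 1 of 8 libraries, those of ZNF563 and ZNF772 without any 1 of 6, that of ZNF583 without any 1 of 11, and that of ZNF428 without the second treated OCI-LY3 or the third untreated SU-DHL6 library.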

How the results depend on the processing

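Of 198 counts of called genes recomputed under the alternatives, 176 stayed within 1.5 times the reported count. With total counts, 10 genes were lower in SU-DHL6, and the response difference was higher for 66 and lower for 9. At an adjusted p under 0.01, 22 were higher and 13 lower in OCI-LY3, 36 and 10 in SU-DHL6, and 22 and 11 for the difference. With changes required to reach 1 on the log2 scale, 21 and 11 remained past the threshold in OCI-LY3, 25 and 5 in SU-DHL6, and 13 were lower for the difference. Without genes whose exons overlap others, which leaves 93, the counts were 18 and 11, 26 and 6, 13 and 9, and, between untreated lines, 22 and 41. The stricter thresholds and the smaller set lower the counts by construction, and for total counts the cause was not tested.

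With 1 library left out at a time, 29 to 45 were higher and 17 to 26 lower in OCI-LY3, 44 to 64 and 14 to 20 in SU-DHL6, 28 to 45 and 14 to 22 for the difference, and 43 to 51 and 76 to 85 between untreated lines. Of 2299 values of named genes under 23 settings, 2119 kept their call, 180 lost it and 0 reversed.

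Deviations from the group means correlated at -0.12 to 0.0538 between same-numbered libraries and at -0.0971 to 0.125 between libraries of unlike number. With 3 libraries a group, these values cannot show whether the cultures were handled in matched sets. With the replicate block, 42 were higher and 23 lower in OCI-LY3, 57 and 18 in SU-DHL6, 33 and 19 for the difference, and 46 and 87 between untreated lines. Low counts limit what can be said of the 40 genes under a mean count of 10.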
